A study of Mus musculus with 3 samples.

Results

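The genes described here code for proteins that build, carry or remodel lipoproteins in liver: the apolipoproteins Apoa1, Apoa2, Apoa4, Apoa5, Apob, Apoc3, Apoe and Apom, the microsomal triglyceride transfer protein Mttp and the phospholipid transfer protein Pltp. They were chosen by gene symbol, and the 10 genes were found among 49492 listed entries. All 10 reached 1 CPM (counts scaled to a common library size) in at least 1 library and so stood among the 14585 genes kept. RNA from livers of CD-1 mice, an outbred stock, was sequenced in 3 libraries, 1 per group. Mice of the treated groups were given a daily oral dose of 25 mg/kg of sonicated zinc oxide (ZnO) nanoparticles, for 12 weeks in one group and for 8 weeks in the other, and control mice were dosed with the same volume of phosphate-buffered saline (PBS). The labels used here give no genotype change, and they state neither the sex or age of the mice, nor the number of animals per library, nor the length of PBS dosing, nor the hour of collection. With 1 library per group no difference has a replicate check, so ratios describe these libraries, and no p-value is given.

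Liver secretes triglyceride in very low density lipoproteins (VLDL). In the endoplasmic reticulum Mttp loads lipid onto each newly made Apob chain, and a chain that receives too little lipid is degraded. Apoa1 is the structural protein of high density lipoproteins (HDL), which take up cholesterol from cells through Abca1 and exchange phospholipid with other particles through Pltp. Small exchangeable apolipoproteins then set how a particle is used: Apoc3 slows lipolysis and clearance, Apoa5 promotes lipolysis, and Apoe is the ligand by which receptors on hepatocytes take up remnants.

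Total counts were 13263211 in the 12-week library, 14258770 in the 8-week library and 13614979 in the control, where 3 counts corresponded to 0.227, 0.209 and 0.221 CPM. The labelled tissue showed in its markers: Alb, which codes for albumin, stood at 31169 CPM at 12 weeks, 31793 CPM at 8 weeks and 21847 CPM in the control, and 11 hepatocyte markers summed to 61866, 55582 and 43302 CPM in the same libraries. Alb is among the 11 and was the largest part of each sum. Hpd had 847 CPM at 12 weeks and 869 CPM at 8 weeks, against 1029 CPM in the control. Serpina1c had 1410 CPM at 12 weeks and 1057 CPM at 8 weeks, against 1668 CPM in the control. Ahsg was lower than the control at 8 weeks only, and the other markers were higher in both treated libraries. The 8-week library also held 10 skeletal muscle genes, among them Myh1, at a sum of 201 CPM, against 1.59 CPM at 12 weeks and 2.36 CPM in the control. Macrophage markers summed to 494 CPM at 12 weeks and 624 CPM at 8 weeks, against 254 CPM in the control, and clock genes differed between the libraries too. In bulk RNA, fewer cells of a type and less RNA per cell cannot be told apart.

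Sequence just upstream of 4 of the genes is shown because the results turn on them: Pltp was the gene with the largest ratio, Apoa4 and Apoa1 had the lowest ratios at 8 and 12 weeks, and Apob had ratios near 0. The letters are from RefSeq (build GRCm38.p6), run 5′ to 3′ on the gene's own strand, and end at the base before the gene's start in the deposited files. The Pltp sequence lies at chr2:164857712-164857958 on the minus strand, Apoa4 at chr9:46240594-46240695 on the plus strand, Apoa1 at chr9:46228380-46228579 on the plus strand and Apob at chr12:7977427-7977647 on the plus strand. Capitals mark motif matches.
Pltp: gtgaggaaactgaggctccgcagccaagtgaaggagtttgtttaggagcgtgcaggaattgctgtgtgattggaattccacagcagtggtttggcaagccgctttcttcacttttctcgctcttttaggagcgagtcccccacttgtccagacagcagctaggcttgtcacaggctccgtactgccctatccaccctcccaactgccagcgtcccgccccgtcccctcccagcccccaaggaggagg
Apoa4: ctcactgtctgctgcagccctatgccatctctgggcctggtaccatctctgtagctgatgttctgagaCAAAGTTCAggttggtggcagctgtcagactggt
Apoa1: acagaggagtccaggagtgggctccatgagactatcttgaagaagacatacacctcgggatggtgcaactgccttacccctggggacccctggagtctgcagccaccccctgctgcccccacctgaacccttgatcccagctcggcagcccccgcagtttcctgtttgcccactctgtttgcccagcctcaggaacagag
Apob: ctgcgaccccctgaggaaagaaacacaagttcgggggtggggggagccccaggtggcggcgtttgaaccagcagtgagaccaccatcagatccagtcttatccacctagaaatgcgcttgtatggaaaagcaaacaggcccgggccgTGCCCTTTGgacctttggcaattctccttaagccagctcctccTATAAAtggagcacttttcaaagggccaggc
RefSeq windows of 250 bases upstream of a start site were found for 9 of the 10 genes. In them 5 motifs were searched, all chosen after the sequences were seen. CAAAGNNCA, a pattern bound by the hepatocyte factor Hnf4a, was matched on either strand in the windows of Apoa4 and Apob, at 182 and 103 bases before the RefSeq start, and in 5.49% of all 32851 promoter windows. TATAAA, read on the gene's strand, was in the windows of Apob, Apoa2 and Apoa5 and in 7.59% of all windows. TGTTTAC on either strand, a pattern of Foxa factors, was in the Apoa2 window and in 3.17% of all. CACGTG was in the Apoa5 window and in 6.02% of all, and AGGTCA on either strand was in 0 of the 9 windows and in 14.0% of all. None of the 5 motifs was in the Pltp or the Apoa1 window. A match describes letters and not a bound site, and a missing match says only that the letters are not in the window.

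Per gene length, the genes ranged from one of the most abundant of the liver, Apoe, to Pltp, which ranked 5254 in the control. Levels between genes are given in TPM, which divides each count by the gene length in the files before scaling to a common total. Apoe was the most abundant of the 10 and the 12th most abundant gene of each library, at 13089 TPM at 12 weeks, 13372 TPM at 8 weeks and 16257 TPM in the control. Apoa2 stood next in the treated libraries, at 7364 TPM at 12 weeks and 8974 TPM at 8 weeks, against 8876 TPM in the control. Apoa1 had 6500.3 TPM at 12 weeks, 7532 TPM at 8 weeks and 9332 TPM in the control, so Apoa1 was below Apoa2 in both treated libraries and above it in the control. The lowest 2 were Mttp and Pltp in every library.

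**Figure D1:**
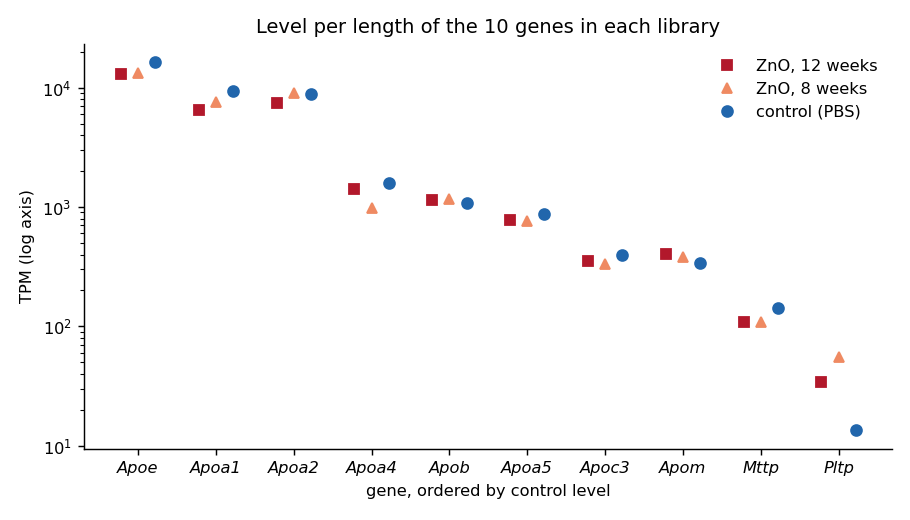
Level of each gene per gene length (TPM, log axis) in the 12-week, 8-week and control libraries, 1 point per library and no error bar since each group is 1 library. Apoe is at the top at 13089 to 16257 TPM, and Pltp at the bottom is the gene whose control point (13.5 TPM) lies farthest under its treated points (34.5 and 55.5 TPM).

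Neighbours in that order differed by more than counting error in each library. The closest pair was Apoa1 and Apoa2 in the control, with a TPM ratio of 1.05 (95% interval 1.04 to 1.07, counting error only). At 12 weeks the order was Apoe, Apoa2, Apoa1, Apoa4, Apob, Apoa5, Apom, Apoc3, Mttp and Pltp. At 8 weeks Apob stood above Apoa4, at 1172 against 976 TPM. Opposite-strand entries that share exons with Apoa4 had counts of 43.6% and 36.7% of the Apoa4 count there. Such an entry in Apoa5 had 51.0% of the Apoa5 count. The places of Apoa4 and Apoa5 in each library may thus depend on how shared reads were counted, which the intervals do not cover. In the control Apoc3 stood above Apom, at 393 against 339.8 TPM, and in both treated libraries Apom was the higher. Whether a shift of neighbours exceeds the variation between mice was not tested.

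Compared with the control, Pltp alone of the 10 passed 2-fold. At 12 weeks 1 of 10 was at least 2-fold higher (3.11% of all genes kept were) and 0 were at least 2-fold lower (1.34% of all). At 8 weeks 1 of 10 was at least 2-fold higher (4.15% of all) and 0 at least 2-fold lower (2.1% of all). The other 9 are abundant, with a mean of at least 100 CPM, and 0 of 9 passed 2-fold in either direction, where 4.57% of 1599 equally abundant genes did at 12 weeks and 6.69% at 8 weeks. A count of 0 among 9 genes is near those shares. Both comparisons use the same control library. The median log2 ratio of the 10 genes was -0.18 at 12 weeks and -0.26 at 8 weeks, beside -0.01 and -0.02 over all genes kept, and in each comparison 3 genes lay above 0 and 7 below. Of the 14585 genes kept, 7439 lay below 0 at 12 weeks and 7531 at 8 weeks. Of the 1599 abundant genes, 889 and 833 did.

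**Figure D2:**
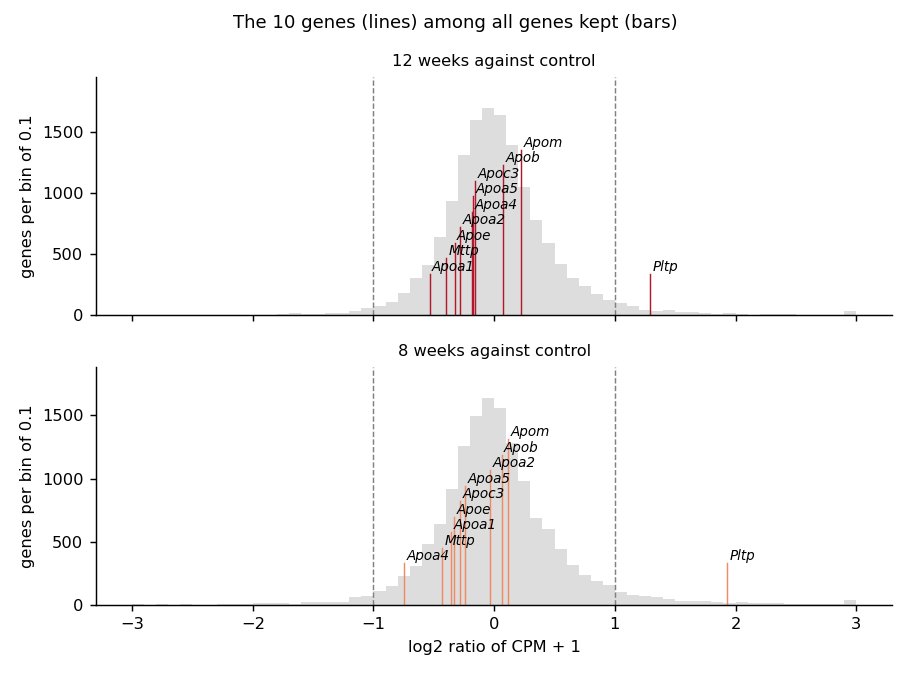
Log2 ratio of CPM + 1 against the control for 12 weeks (top) and 8 weeks (bottom), with bars counting all 14585 genes kept in bins of 0.1 and lines marking the 10 genes. Ratios beyond 3 are drawn in the end bins, and line heights serve only to separate the names. Dashed lines stand at 2-fold, and Pltp is the gene outside them, at 1.29 and 1.93.

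At 1.5-fold, a looser rule of size, 1 of 10 was higher at 12 weeks (9.28% of all) and 0 were lower (6.22% of all). At 8 weeks Pltp was higher (10.6% of all) and Apoa4 lower (7.97% of all) by that rule. The choice of scale matters for the small ratios. When libraries were scaled to the hepatocyte markers instead of all genes, the median of all genes moved by -0.42 at 12 weeks and by -0.19 at 8 weeks. Of the 10 genes, 9 then lay below 0 in each comparison. In TPM 7 lay below 0 at 12 weeks and 6 at 8 weeks.

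**Figure D3:**
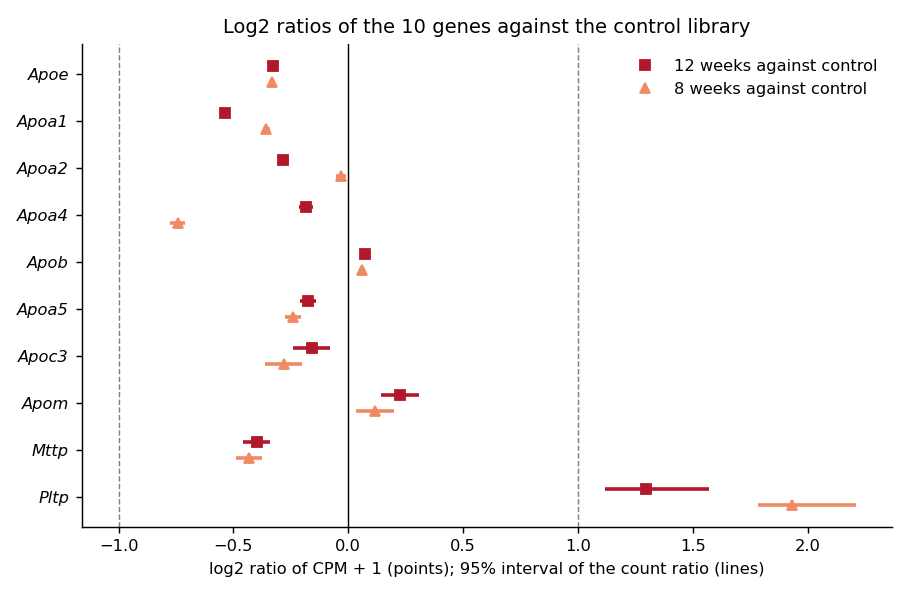
Log2 ratio of CPM + 1 for each gene (points) against the control, 12 weeks and 8 weeks, with lines for the exact 95% interval of the count ratio, which covers counting error only and no variation between mice. Dashed lines mark 2-fold. Pltp lies at the right, and Apoa4 at 8 weeks (-0.74) lies farthest left.

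Apob and Mttp carry out VLDL assembly. Apob (chr12:7977648-8016835, plus strand, mm10) had 7762 CPM at 12 weeks, 7691 CPM at 8 weeks and 7372 CPM in the control, values within a narrow band. Its log2 ratios were 0.07 at 12 weeks and 0.06 at 8 weeks, and they turned to -0.40 and -0.15 under the scaling to hepatocyte markers. Mttp (chr3:138089854-138144968, minus strand), the lipid transfer subunit of the complex, had 327 CPM at 12 weeks and 319 CPM at 8 weeks, against 431 CPM in the control. Both treated libraries were thus lower than the control, with log2 ratios of -0.40 (95% interval -0.46 to -0.34) at 12 weeks and -0.43 (-0.49 to -0.38) at 8 weeks. Mttp exons share 457 bases with Trmt10a and 132 with Gm43691, both on the opposite strand. The Trmt10a count was 4.38% of the Mttp count at 12 weeks, 3.37% at 8 weeks and 2.97% in the control. That of Gm43691 was 3.51%, 3.29% and 3.30% in the same libraries. P4hb, a disulfide isomerase that is the other subunit of the Mttp complex, had 1063 CPM at 12 weeks, 1074 CPM at 8 weeks and 1045 CPM in the control. The ratio of Mttp to Apob, which no library scaling alters, was 0.0946 at 12 weeks, 0.0932 at 8 weeks and 0.131 in the control in TPM. Its log2 change was -0.47 (95% interval -0.53 to -0.42) at 12 weeks and -0.49 (-0.55 to -0.44) at 8 weeks.

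The HDL proteins Apoa1 and Apoa2 were lower in the 12-week library. Apoa1 (chr9:46228580-46230466, plus strand), which activates cholesterol esterification on HDL, had 3877 CPM at 12 weeks and 4385 CPM at 8 weeks, against 5618 CPM in the control. Its log2 ratio was -0.54 (95% interval -0.55 to -0.52) at 12 weeks, the lowest of the 10 genes there, and -0.36 (-0.37 to -0.34) at 8 weeks. Apoa2 (chr1:171225054-171226379, plus strand), the next most abundant HDL protein, had 1908 CPM at 12 weeks, 2270.2 CPM at 8 weeks and 2322 CPM in the control. The 8-week and control values were nearly equal and the 12-week value was lower. Its log2 ratio was -0.28 (95% interval -0.31 to -0.26) at 12 weeks, and at 8 weeks it was -0.03, or 0.02 in TPM. The TPM ratio of Apoa1 to Apoa2 was 0.883 at 12 weeks, 0.839 at 8 weeks and 1.05 in the control, so its log2 change was -0.25 (95% interval -0.28 to -0.22) at 12 weeks and -0.33 (-0.35 to -0.30) at 8 weeks. Against Apob, the structural protein of VLDL, Apoa1 had a TPM ratio of 5.63 at 12 weeks, 6.43 at 8 weeks and 8.59 in the control.

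Apom (chr17:35128997-35132050, minus strand), which carries sphingosine-1-phosphate on HDL, had 196 CPM at 12 weeks, 182 CPM at 8 weeks and 168 CPM in the control. Its log2 ratios of 0.23 (95% interval 0.14 to 0.31) at 12 weeks and 0.12 (0.03 to 0.20) at 8 weeks were the highest after Pltp, and under the scaling to hepatocyte markers they were -0.24 and -0.09. Apom was the HDL apolipoprotein of these whose CPM was above the control in both treated libraries.

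Pltp (chr2:164839518-164857711, minus strand) had 42.7 CPM at 12 weeks and 66.9 CPM at 8 weeks, against 16.8 CPM in the control, from 565, 959 and 228 counts. The 8-week library was the highest and the control the lowest. The fold on the CPM + 1 scale was 2.45 at 12 weeks (log2 ratio 1.29, 95% interval of the count ratio 1.12 to 1.57) and 3.82 at 8 weeks (1.93, 1.78 to 2.21). Of all genes kept, 1.67% had a ratio as high or higher at 12 weeks and 0.946% at 8 weeks. Scaled to the hepatocyte markers the log2 ratio was 0.84 at 12 weeks, under 2-fold, and 1.73 at 8 weeks. By TPM rank Pltp stood at 2568 at 12 weeks, 1729 at 8 weeks and 5254 in the control. The Pltp exons share 495 bases with Ctsa, a lysosomal gene on the opposite strand, and whether counting used strand is not given in the sources used here. The Ctsa count was 197% of the Pltp count at 12 weeks, 137% at 8 weeks and 573% in the control, and how far reads were shared between the pair was not tested. Ctsa had log2 ratios of -0.20 at 12 weeks and -0.07 at 8 weeks.

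Macrophages of liver and other tissues also make Pltp, and their markers were higher in the same libraries. Of 14 macrophage markers, 12 were at least 2-fold higher at 12 weeks and 13 at 8 weeks, with median log2 ratios of 1.496 and 1.89, and 0 of 14 were at 0 in any library. Cd5l, a protein secreted by liver macrophages, had 52.0 CPM at 12 weeks and 83.5 CPM at 8 weeks, against 14.9 CPM in the control. The scavenger receptor Cd163 had 29.5 CPM at 12 weeks and 38.6 CPM at 8 weeks, against 8.48 CPM in the control. Marker sums were 494, 624 and 254 CPM at 12 weeks, 8 weeks and in the control. Slc40a1, an iron exporter with log2 ratios of 0.23 at 12 weeks and 0.45 at 8 weeks, made up 61.0% of the control sum. Without it, a choice made after seeing the data, the other 13 summed to 312 CPM at 12 weeks and 413 CPM at 8 weeks, against 99.0 CPM in the control. The part of macrophages in the Pltp difference was not tested.

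**Figure D4:**
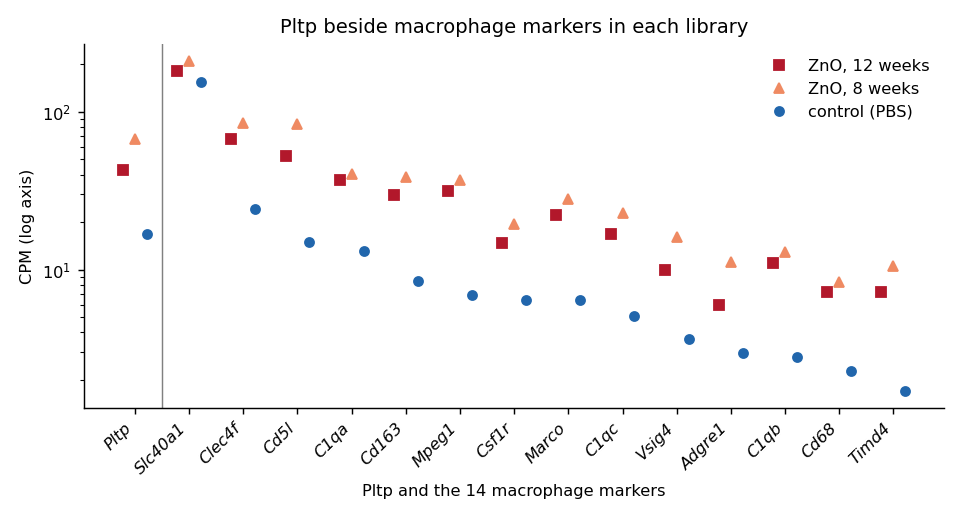
CPM (log axis) of Pltp, left of the vertical line, and of the 14 macrophage markers, right of it, in the 12-week, 8-week and control libraries, 1 point per library. The 8-week point is the highest and the control point the lowest for Pltp and for each marker.

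The 3 genes whose pair of log2 ratios lay nearest to that of Pltp, among 7530 genes with a mean of at least 10 CPM over the 3 libraries, were Sdc3, Wee1 and Gstm2. Sdc3, a cell surface proteoglycan, was nearest at a distance of 0.0808, with 33.7 CPM at 12 weeks, 49.6 CPM at 8 weeks and 12.4 CPM in the control. Wee1, a kinase that holds cells before mitosis, lay at 0.112, and Gstm2, a glutathione transferase, at 0.138. With 3 libraries such likeness describes 2 ratios and nothing more.

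Apoa4, Apoa5 and Apoc3 belong to triglyceride-rich particles and lie beside Apoa1 in a cluster on chromosome 9 that spans 43.3 kb. Apoc3 starts 4.35 kb, Apoa4 12.1 kb and Apoa5 40.1 kb from the first base of Apoa1. Apoa4 (chr9:46240696-46243459, plus strand), an apolipoprotein that rises in liver with triglyceride load in mice, had 1231 CPM at 12 weeks and 834 CPM at 8 weeks, against 1397 CPM in the control. Here the 8-week library stood apart, with a log2 ratio of -0.74 (95% interval -0.78 to -0.71), while at 12 weeks the ratio was -0.18 (-0.21 to -0.15). Apoa5 (chr9:46268633-46271919, plus strand) had 946 CPM at 12 weeks and 904 CPM at 8 weeks, against 1067 CPM in the control. Apoc3 (chr9:46232933-46235636, minus strand) had 174 CPM at 12 weeks and 159.7 CPM at 8 weeks, against 194 CPM in the control. Log2 ratios of Apoa5 were -0.17 at 12 weeks and -0.24 at 8 weeks, and those of Apoc3 were -0.16 and -0.28. The TPM ratio of Apoc3, which slows lipolysis, to Apoa5, which promotes it, was 0.457 at 12 weeks, 0.439 at 8 weeks and 0.453 in the control. Its log2 change was 0.01 (95% interval -0.07 to 0.10) at 12 weeks and -0.04 (-0.13 to 0.04) at 8 weeks, both intervals including 0.

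**Figure D5:**
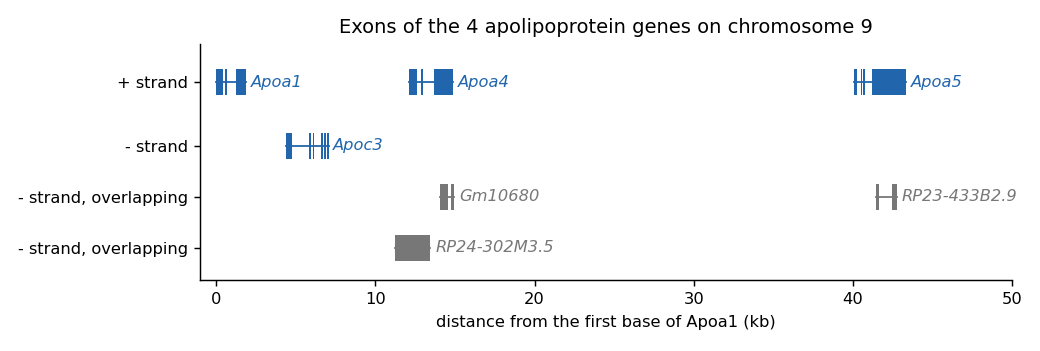
Exons (boxes) of Apoa1, Apoc3, Apoa4 and Apoa5 on chromosome 9 by distance from the first base of Apoa1 (kb), with the opposite-strand entries that overlap exons of Apoa4 and Apoa5 in grey. Gm10680 and RP24-302M3.5 lie across the ends of Apoa4, and RP23-433B2.9 lies within Apoa5.

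Part of the count of Apoa4 and Apoa5 lies where entries on the opposite strand also have exons. Gm10680 shares 632 bases with Apoa4, and its count was 43.9% of the Apoa4 count at 12 weeks, 43.6% at 8 weeks and 45.6% in the control. RP24-302M3.5 shares 634 bases with Apoa4, and its count was 36.9% of the Apoa4 count at 12 weeks, 36.7% at 8 weeks and 33.6% in the control. RP23-433B2.9 shares 524 bases with Apoa5, at 52.6%, 51.0% and 53.0% of its count in the same libraries. These shares were close to constant over the libraries. With the overlapping counts added, the log2 ratio of Apoa4 was -0.17 at 12 weeks and -0.74 at 8 weeks, and that of Apoa5 was -0.18 and -0.26. The levels of both genes are therefore less certain than their ratios. Whether counting used strand is not given, so reads of a gene and of its antisense partner may be counted for either.

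Apoe (chr7:19696109-19699188, minus strand) took 1.35% of all counts in each treated library and 1.69% in the control. It had 13502 CPM at 12 weeks and 13468 CPM at 8 weeks, against 16929 CPM in the control, and its log2 ratio was -0.33 (95% interval -0.34 to -0.32) in each comparison. Many cell types besides hepatocytes, macrophages among them, make Apoe. The treated libraries were alike and lower than the control for this gene. The 13 macrophage markers other than Slc40a1, which was left out after seeing the data, summed to 312 CPM at 12 weeks and 413 CPM at 8 weeks. In the control they summed to 99.0 CPM. The part of macrophages in the Apoe values was not tested. All 10 genes together took 2.99% of counts at 12 weeks and 3.04% at 8 weeks, against 3.54% in the control.

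Set directly against each other, the 12-week library and the 8-week library differed less. At 2-fold 0 of 10 genes were higher (1.28% of all genes kept were) and 0 were lower (1.23% of all), and of the 1599 abundant genes 2.88% passed in either direction. At 1.5-fold 0 were higher (5.41% of all) and 1, Pltp, was lower (4.73% of all), at a log2 ratio of -0.64 (95% interval -0.80 to -0.50). Apoa4 was the highest of the 10, at 0.56 (95% interval 0.53 to 0.59), and it stood at 0.30 under the scaling to hepatocyte markers. Apoa2 was lower at 12 weeks than at 8 weeks by that measure, at -0.25 (-0.27 to -0.23), as was Apoa1 at -0.18 (-0.19 to -0.16). The TPM ratio of Apoa4 to its neighbour Apoa1 was 0.216 at 12 weeks and 0.130 at 8 weeks, with 0.169 in the control. Log2 ratios of Apob, Mttp, Apoe, Apoa5, Apoc3 and Apom lay between 0.00 and 0.12, and each of these 6 turned negative under the scaling to hepatocyte markers, as did Apob, Mttp and Apoe in TPM. The median of the 10 was 0.02, beside -0.00 over all genes.

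Apolipoproteins outside the 10 also had medians below 0. All list medians given here are on the scale of all genes and would move with it under the scaling to hepatocyte markers. Of 12 others listed, 10 were kept, with a median log2 ratio of -0.28 at 12 weeks and -0.24 at 8 weeks. At 12 weeks 0 were at least 2-fold higher or lower, and at 8 weeks 3 were higher and 0 lower. Apof, a plasma apolipoprotein, had 556 CPM at 12 weeks and 647 CPM at 8 weeks, against 905 CPM in the control. Apoc1, a neighbour of Apoe, had 380.1 CPM at 12 weeks and 393 CPM at 8 weeks, against 473 CPM in the control. The 3 higher at 8 weeks were of the Apol family, which does not serve plasma lipoproteins in the way the others do. Apol9a had 9.59 CPM at 12 weeks and 38.8 CPM at 8 weeks, against 7.81 CPM in the control, and Apol9b had 22.4, 53.2 and 17.6 CPM in the same libraries. Apol9a and Apol9b are near-identical, so reads could be split between them and each value is uncertain.

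Among other proteins that ride on HDL, the serum amyloid A genes had the highest ratios. Of 6 listed, 3 were at least 2-fold higher at 12 weeks and 2 at 8 weeks, and 0 were lower in either, with medians of 0.46 and 0.21. Saa1, an acute phase apolipoprotein of HDL, had 417 CPM at 12 weeks and 88.2 CPM at 8 weeks, against 5.60 CPM in the control. Saa2 had 684 CPM at 12 weeks and 49.0 CPM at 8 weeks, against 3.32 CPM in the control. Saa1 and Saa2 are near-identical in sequence, and their separate values are uncertain. Saa4, which liver makes at all times, had 3303 CPM at 12 weeks, 1949 CPM at 8 weeks and 1464 CPM in the control. The antioxidant enzyme Pon1 lay the other way, at 296 CPM at 12 weeks and 314 CPM at 8 weeks, against 421 CPM in the control.

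Among 24 partners of VLDL assembly, 1 was at least 2-fold higher and 0 were lower at 12 weeks, and 0 were higher and 1 lower at 8 weeks, with medians of -0.13 and -0.08. The gene higher at 12 weeks was Apobec1, which edits Apob messenger RNA into its short form, at 30.4 CPM at 12 weeks and 17.8 CPM at 8 weeks, against 13.0 CPM in the control. Plin2, a lipid droplet coat protein, was the gene lower at 8 weeks, at 579 CPM at 12 weeks and 204 CPM at 8 weeks, against 837 CPM in the control. It shared with Apoa4 a lowest value in the 8-week library. Genes of the transport vesicles that carry lipoproteins to the Golgi, such as Sar1b at 113 CPM in each treated library and 128 CPM in the control, were within 2-fold.

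Of 10 genes of HDL formation and remodelling, 0 passed 2-fold at 12 weeks and 2 were higher at 8 weeks, with 0 lower and medians of 0.07 and 0.06. Abcg1, a cholesterol exporter, had 4.76 CPM at 12 weeks and 5.30 CPM at 8 weeks, against 1.99 CPM in the control. Endothelial lipase, coded by Lipg, had 12.4 CPM at 12 weeks and 26.9 CPM at 8 weeks, against 12.4 CPM in the control. Abca1, the exporter that lipidates Apoa1, had 204 CPM at 12 weeks and 135 CPM at 8 weeks, against 126 CPM in the control. Receptors and clearance proteins numbered 11 kept, with 0 past 2-fold at 12 weeks, 2 higher and 0 lower at 8 weeks, and medians of 0.22 and 0.27. Vldlr, a receptor that binds Apoe on triglyceride-rich particles, was among those higher at 8 weeks, with log2 ratios of 0.30 at 12 weeks and 1.07 at 8 weeks.

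Plasma lipolysis was represented by 8 genes. At 12 weeks 1 was at least 2-fold higher and 1 lower, and at 8 weeks 2 were higher and 0 lower, with medians of 0.13 and 0.08. Lpl, the lipase that hydrolyses triglyceride of VLDL, had 49.2 CPM at 12 weeks and 49.3 CPM at 8 weeks, against 21.3 CPM in the control. Angptl8, which restrains Lpl, had 12.8 CPM at 12 weeks and 20.1 CPM at 8 weeks, against 29.8 CPM in the control. Macrophages also make Lpl, and the same 13 markers had higher sums in both treated libraries than in the control. Their part in the Lpl difference was not tested.

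Transcription factors and nuclear receptors that act on apolipoprotein genes numbered 30. At 12 weeks 0 were at least 2-fold higher and 1 lower, and at 8 weeks 2 were higher and 0 lower, with medians of -0.04 and -0.03. Hnf4a, which drives many apolipoprotein genes, had 1139.5 CPM at 12 weeks and 851 CPM at 8 weeks, against 816 CPM in the control. Creb3l3, a liver factor that activates Apoa4 in mice, had 245 CPM at 12 weeks and 183 CPM at 8 weeks, against 284 CPM in the control. In both Creb3l3 and Apoa4 the 8-week library was the lowest. Nr0b2, a repressor induced by bile acids, was the gene lower at 12 weeks, at a log2 ratio of -1.06, and the coactivator Ppargc1a was among those higher at 8 weeks, at 1.73.

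Pltp is a known target of the oxysterol receptors Nr1h3 and Nr1h2 in mouse liver, and 11 genes known as targets of or coding for these receptors gave medians of 0.30 at 12 weeks and 0.25 at 8 weeks. At 12 weeks 3 were at least 2-fold higher and 0 lower, and at 8 weeks 4 were higher and 0 lower. Scd1, a fatty acid desaturase, had log2 ratios of 3.75 at 12 weeks and 4.19 at 8 weeks, and Fasn, the fatty acid synthase, had 1.34 and 1.72. Lpl had 1.17 in both comparisons, and Abcg1 had 0.95 and 1.08, from 27 counts in the control. Abca1 had 0.69 and 0.10, Abcg5 0.20 and 0.25, and Mylip 0.30 and 0.25. Abcg8, a sterol exporter, lay below 0 at -0.07 and -0.28, as did Lpcat3, a phospholipid-remodelling enzyme, at -0.12 and -0.06, and Srebf1, the lipogenic factor, had -0.11 at 12 weeks and 0.96 at 8 weeks. Nr1h3 itself had 38.7 CPM at 12 weeks, 42.9 CPM at 8 weeks and 42.2 CPM in the control. Several of these genes answer to other regulators as well. The part of these receptors in the Pltp difference was not tested.

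Liver apolipoprotein and lipid genes also vary over the day, and the clock genes of these libraries differed. Of 16 clock genes, 1 was at least 2-fold higher and 1 lower at 12 weeks, and 5 were higher and 4 lower at 8 weeks, with medians of 0.11 and 0.25. Arntl, a core activator of the clock, had 5.28 CPM at 12 weeks and 1.40 CPM at 8 weeks, against 18.1 CPM in the control. Per2, a clock repressor, had 45.3 CPM at 12 weeks and 76.6 CPM at 8 weeks, against 20.1 CPM in the control. The part of the hour of collection in the values of the 10 genes was not tested.

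Other marker lists were read beside these values. Hepatocyte markers had median log2 ratios of 0.44 at 12 weeks and 0.14 at 8 weeks, with 0 of 11 past 2-fold in either, opposite in sign to the medians of the 10 genes. Endothelial markers gave medians of 0.47 at 12 weeks and 0.41 at 8 weeks, with 1 of 10 higher in each and 0 lower, and summed to 378, 383 and 297 CPM at 12 weeks, 8 weeks and in the control. Stellate cell and fibroblast markers gave 0.37 and 0.36, with 0 and 1 of 10 higher and 0 lower, and summed to 323, 326 and 258 CPM in the same libraries. Intestine makes several of these apolipoproteins, and of 11 intestine markers Sis, Cdx1, Cdx2, Rbp2 and Alpi were at 0 in all 3 libraries, as was Lct once counts were rounded. Vil1, Cdh17 and Muc2 had between 0 and 4 counts in each library. Slc5a1 had 2.19 CPM at 12 weeks, 1.40 CPM at 8 weeks and 1.18 CPM in the control, and Fabp2 had 80.5 CPM at 12 weeks, 126 CPM at 8 weeks and 140.2 CPM in the control. Of 6 adipocyte markers 1 was kept, Cidec, which hepatocytes also express, and Lep and Retn were at 0 in all 3 libraries. All 10 skeletal muscle markers were at least 2-fold higher at 8 weeks and 0 at 12 weeks, from 2880 counts at 8 weeks, 21 at 12 weeks and 32 in the control, and their part in the 8-week values was not tested.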

How the data were processed

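Per the labels' protocols, TruSeq libraries (Illumina) were prepared from Trizol-extracted RNA of frozen livers. The deposited values are the authors' estimated counts per gene, not normalized: of values above 0, 71.5% at 12 weeks, 70.2% at 8 weeks and 70.4% in the control were whole within 0.005. The submitters' processing notes name TopHat2 2.1.0, Cufflinks 2.2.1.0, mm10 and mm9. Neither the program that counted reads nor its strand setting is stated, and reads in overlapping genes may be counted for either. Of the symbols, 95.4% were in GENCODE M21 (GRCm38), and all 10 genes had the same span there, so coordinates are those of mm10.

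Counts were rounded and scaled by TMM in edgeR 4.0.16 under R 4.3.3, the 12-week, 8-week and control factors being 0.999, 1.005 and 0.997. Genes with 1 CPM or more in at least 1 library were kept, and ratios are log2 of CPM + 1, which understates changes of low genes. A 2-fold ratio is a rule of size and no test. Count-ratio intervals are exact (Clopper-Pearson, 95%), those of ratios between genes use a normal approximation on 4 counts, and all cover counting error only. Amplified reads are not independent molecules, so the intervals may be too narrow even for that error. The steps were tested on counts simulated with counting error only and with known folds. Such counts hold no variation between mice and no shared reads, so the test does not cover either. Alternatives included DESeq2 1.42.0 size factors.

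The 10 genes and the 16 context lists were chosen with earlier results of these data known. All 10 are named. From each list the rule takes up to 4 genes past 2-fold with the largest ratio, or else the 2 most abundant, and not every gene it takes is printed. Genes within 2-fold named from lists that held called genes were picked once values were known. The Tf symbol of the hepatocyte list was not matched. Some genes of the lists are not reported here by name.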

Additional observations from a re-analysis of the deposited data

Results flagged for a closer look

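Apol7a, a gene of the Apol family, lay on opposite sides of the control in the treated libraries. It had 32.9 CPM at 12 weeks and 126 CPM at 8 weeks, against 45.3 CPM in the control, with log2 ratios of -0.45 at 12 weeks and 1.46 at 8 weeks. With 1 library per group, the difference was not tested.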

How the results depend on the processing

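Of 300 values of single genes under 10 alternatives, 249 stayed within the counting interval and 51 moved outside it, and 0 called ratios changed sign. Scaling to the hepatocyte markers, chosen after seeing the data, moved most: the median of the 10 genes was -0.65 at 12 weeks, -0.47 at 8 weeks and -0.24 for 12 against 8 weeks. At 12 weeks it left 0 genes at least 2-fold higher (Pltp 0.84) and made 1 at least 2-fold lower (Apoa1 -1.01). That list holds fibrinogen genes, and Fga, Fgb and Fgg had log2 ratios of 0.96, 0.70 and 0.82 at 12 weeks. At 1.5-fold the count of lower genes was 1 at 8 weeks (Apoa4) and 1 for 12 against 8 weeks (Pltp). In TPM the median for 12 against 8 weeks was -0.011. For that comparison the small ratio of Apoe also changed sign with DESeq2, total-count and upper-quartile scaling, and that of Apob with the last. Pltp ranged from 0.84 to 1.34 at 12 weeks and from 1.72 to 1.99 at 8 weeks. Over all genes, 454 were higher and 196 lower at 12 weeks and 605 and 307 at 8 weeks, against 943 and 415, and 1059 and 597, with 0.1 CPM added, 179 and 80, and 269 and 160, with 5 CPM added, 729 and 505, and 949 and 593, in TPM, and 209 and 865, and 483 and 547, under hepatocyte scaling. For 12 against 8 weeks, 186 and 180 became 443 and 405, 89 and 72, 483 and 520, and 103 and 304 under the same settings. The cause was not tested. No paired analysis was possible because each group is 1 library, and no library could be left out for the same reason. Depth limits Pltp most, with 228 counts in the control.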

Other observations

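Apoe stands in a cluster of 27.6 kb on chromosome 7 with Apoc1, Apoc4 and Apoc2, which code for small apolipoproteins of triglyceride-rich particles and HDL. The log2 ratios against the control at 12 weeks were -0.33 for Apoe, -0.32 for Apoc1, -0.51 for Apoc4 and -0.20 for Apoc2. At 8 weeks they were -0.33, -0.27, -0.37 and -0.08 in the same order. Apoc2 shares 646 exon bases and Apoc4 119 with the entry Gm44805, so their levels are less certain. Apon and Apof, further plasma apolipoproteins, had log2 ratios of -0.63 and -0.70 at 12 weeks and -0.45 and -0.48 at 8 weeks. Apod was at 0 in all 3 libraries.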
